A study of Mus musculus with 18 samples.

Results

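The collagen chain genes are the protein-coding genes whose symbol is Col, a type number, the letter a and a chain number. The table held 44 of them among 21782 protein-coding genes and 54354 rows in all. They were divided by what their chains build into 11 fibrillar, 8 basement membrane, 2 epithelial, 9 fibril-associated, 6 type VI, 3 network, 3 other transmembrane and 2 other chains. Of the 44, 11 had enough counts to be tested and 9 had no count in any of the 10 libraries used.

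Strand-specific RNA sequencing with poly(A) selection was done on mouse colon samples that the labels call tumor and wild type. The groups compared were the serine-free high fat diet (SF_HFD, 5 libraries) and the serine-free control diet (SF_CD, 5 libraries), so both lacked dietary serine and differed in the named diet. The protocol names organoids as the source of the RNA, while the series' design text describes live cells sorted from colons or tumors, and the sources do not settle which applies. The 8 libraries of the serine-containing control and high fat diets were not used, because the rows labelled Actb, Gapdh and Epcam held 0 counts in all 8 and the row labels therefore do not name their genes. Nothing in the labels ties each library to its own animal or culture, so the p-values rest on a spread between libraries that may be technical. No driver mutation, clone, age or pooling is given in the labels.

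Collagens are proteins of the extracellular matrix in which chains wind around each other into a helix, and each turn of that helix needs the small residue glycine at a fixed place in a repeating triplet. Fibrillar collagens such as types I, III and V form the fibrils that give connective tissue its strength, and in the gut they come mainly from fibroblasts and smooth muscle cells. Type IV and type XVIII collagens belong to the basement membrane under the epithelium, and types VII and XVII anchor epithelial cells to it.

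The glycine codons that pace the helix show how the classes differ. The stretches printed here open the longest uninterrupted run of triplets in 6 chains, chosen to set 4 fibrillar chains beside 1 basement membrane and 1 epithelial chain. Each gives 27 codons (81 bases) of the GENCODE M21 coding sequence, written 5′ to 3′ on the coding strand. Capitals mark the glycine codon that opens each triplet, and glycine codons at the other places of a triplet are in lower case.
Col5a2: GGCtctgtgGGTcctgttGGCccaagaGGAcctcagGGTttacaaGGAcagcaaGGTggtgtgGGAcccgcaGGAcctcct
Col1a1: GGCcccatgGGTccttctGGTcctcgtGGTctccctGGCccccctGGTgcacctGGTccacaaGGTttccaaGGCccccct
Col1a2: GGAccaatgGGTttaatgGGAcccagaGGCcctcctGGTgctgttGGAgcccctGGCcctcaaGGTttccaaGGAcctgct
Col3a1: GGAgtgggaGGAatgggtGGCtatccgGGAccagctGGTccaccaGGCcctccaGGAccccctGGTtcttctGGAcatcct
Col4a1: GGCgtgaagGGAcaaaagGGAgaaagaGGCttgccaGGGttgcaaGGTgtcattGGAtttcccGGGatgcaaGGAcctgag
Col17a1: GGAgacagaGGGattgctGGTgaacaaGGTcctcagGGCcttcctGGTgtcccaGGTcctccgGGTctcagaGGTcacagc
They start at coding base 631 in Col5a2, 502 in Col1a1, 289 in Col1a2, 490 in Col3a1, 127 in Col4a1 and 1951 in Col17a1. A run was counted where a glycine codon (GGN) opened at least 5 codon triplets in a row. In the 11 fibrillar chains the longest run held 216 to 344 triplets (median 338), and each chain had 2 to 3 runs. In the 8 basement membrane chains the longest run held 30 to 66 triplets (median 41.0), and each chain had 11 to 27 runs. Col4a1 had 22 runs, the longest of 40 triplets, and the epithelial chain Col17a1 had 14 runs, the longest of 55 triplets. The runs of fibrillar chains were thus few and long, and those of the basement membrane and epithelial chains were shorter and more numerous.

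Library totals ranged from 727610 to 12146933 counts in SF_HFD and from 499774 to 12841275 in SF_CD. SF_HFD library 5 and SF_CD libraries 1 and 5, 3 libraries in all, held under 1000000 counts. Ribosomal RNA genes took 21.99% of the counts of SF_CD library 1 and 14.55% of SF_CD library 5, against 2.08% to 7.19% in the other 8. Levels are given as CPM, the counts of a gene per 1000000 counts of its library, after TMM scaling, which corrects the totals for composition. A count of 3 corresponds to 3.79 CPM in SF_HFD library 5, and to 6.76 CPM and 5.84 CPM in SF_CD libraries 1 and 5, against 0.226 to 0.691 CPM in the other 7. The collagen chains together took 0.00756% to 0.0251% of all counts in a library.

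The fibrillar chain Col5a2 was higher in SF_HFD, and it was the only one of the 11 tested chains to pass the test. It encodes a chain of type V collagen, which sits inside type I fibrils and limits their width. In SF_HFD libraries 1 to 5 it stood at 13.03, 9.45, 11.9, 10.9 and 15.2 CPM, and in SF_CD libraries 1 to 5 at 0, 1.87, 0.561, 1.06 and 0 CPM. Every SF_HFD library was above every SF_CD library. The means were 12.1 ± 2.17 CPM in the SF_HFD libraries and 0.699 ± 0.792 CPM in the SF_CD libraries (SD, n = 5 each), on 470 counts in SF_HFD and 35 in SF_CD. The log2 fold change of SF_HFD over SF_CD was 3.49 ± 0.56 (SE), with an adjusted p of 0.00795 by edgeR's quasi-likelihood test with Benjamini-Hochberg adjustment over 11780 genes, where a gene is called under 0.05. Of all genes tested, 0.153% were called higher in SF_HFD and 0.17% lower, and no collagen chain was called lower. Col5a2 passed the filter on low counts through the SF_HFD libraries, so under that filter it was tested only because it was high there. Without that filter its log2 fold change was 3.50, with an adjusted p of 0.00343 by edgeR, and it was again the only chain called, where 0.0985% of all genes were called higher. A count of 0 leaves up to 8.32 CPM in SF_CD library 1 and 7.18 CPM in SF_CD library 5 within the 95% exact Poisson interval, which covers counting error only. In bulk samples such as these, fewer cells of a type and less RNA per cell cannot be told apart.

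**Figure D1:**
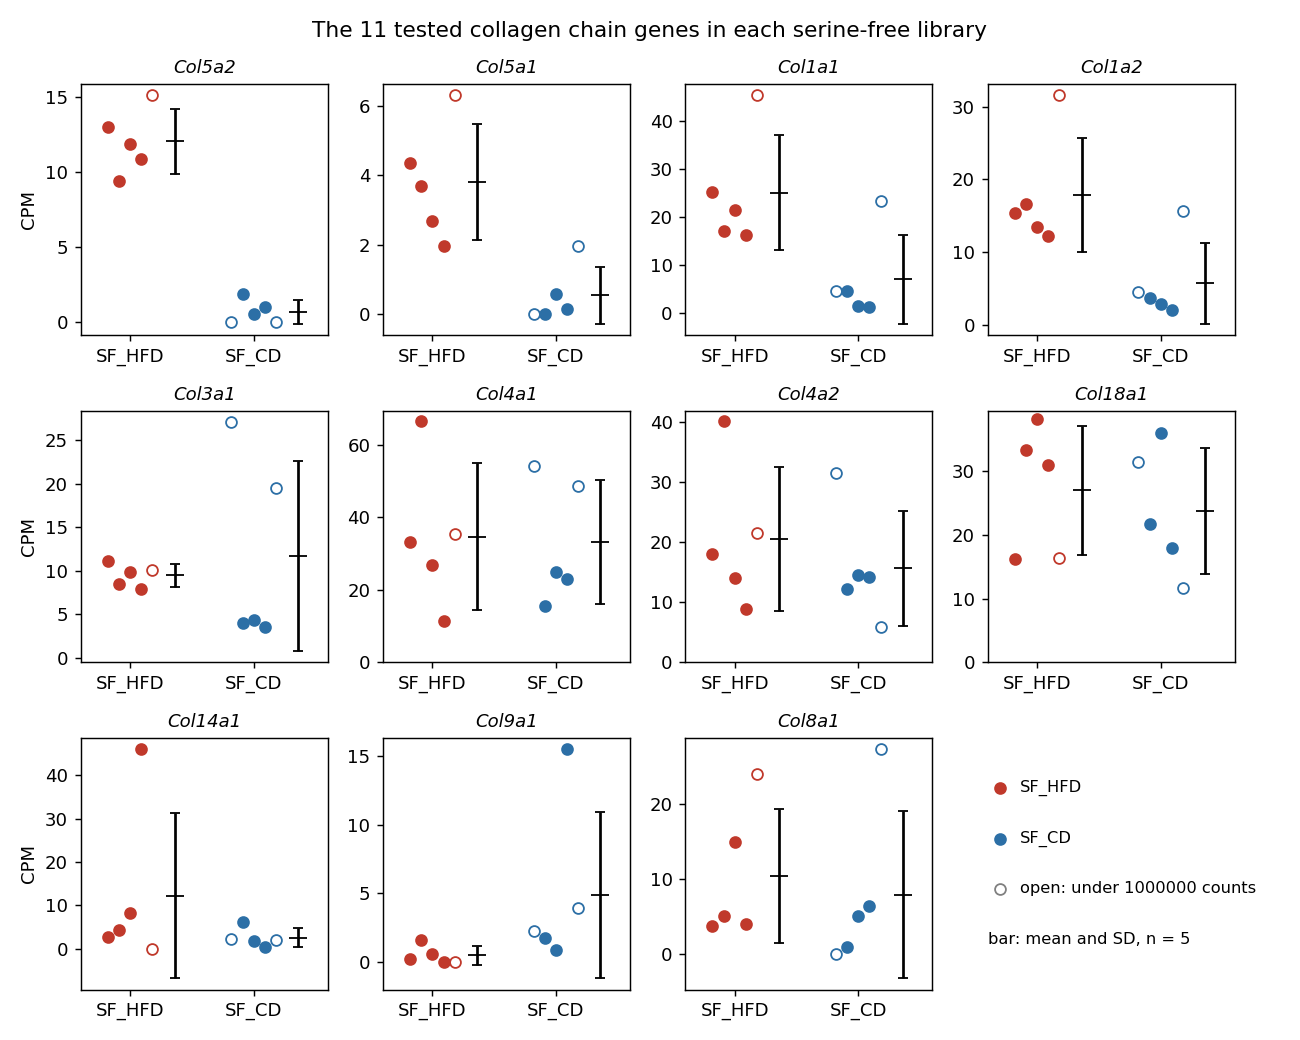
CPM of the 11 tested collagen chain genes in each library, SF_HFD on the left and SF_CD on the right of each panel, with the mean and SD (n = 5) as bars and open circles for the 3 libraries under 1000000 counts. Col5a2 lies between 9.45 and 15.2 CPM in SF_HFD and at most at 1.87 CPM in SF_CD, while the groups of Col4a1, Col4a2 and Col18a1 overlap.

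Its partner in type V collagen, Col5a1, had a difference of like size but fewer counts. It lies outside the rule for named genes and is given in every library because its values stood out. Col5a1 was at 4.34, 3.69, 2.68, 1.96 and 6.32 CPM in SF_HFD libraries 1 to 5, and at 0, 0, 0.561, 0.152 and 1.95 CPM in SF_CD libraries 1 to 5. The groups did not overlap, although the lowest SF_HFD value (1.96 CPM) and the highest SF_CD value (1.95 CPM) nearly met. That SF_CD value, in library 5, is 1 count, with a 95% interval of 0.0493 to 10.9 CPM. The count of 0 in SF_CD library 1 leaves up to 8.32 CPM. Both intervals reach above every SF_HFD value of Col5a1. The means were 3.80 ± 1.68 CPM in the SF_HFD libraries and 0.532 ± 0.824 CPM in the SF_CD libraries (SD, n = 5 each), on 124 counts in SF_HFD and 7 in SF_CD. The log2 fold change was 3.62 ± 0.89 (SE) and the adjusted p 0.102 by edgeR, so Col5a1 was not called. Col5a2 and Col5a1 were thus the 2 of 11 tested chains higher in every SF_HFD library, a pattern that 2.23% of all genes tested showed, and both had reached the test through the SF_HFD libraries.

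Type I collagen, the bulk of most fibrils, is built from Col1a1 and Col1a2. Col1a1 was at 25.2, 17.1, 21.5, 16.2 and 45.5 CPM in SF_HFD libraries 1 to 5, and at 4.51, 4.63, 1.40, 1.21 and 23.4 CPM in SF_CD libraries 1 to 5. The groups overlapped through SF_CD library 5 alone, whose 12 counts of Col1a1 carry a 95% interval of 12.1 to 40.8 CPM. The means were 25.1 ± 12.0 CPM in the SF_HFD libraries and 7.02 ± 9.28 CPM in the SF_CD libraries (SD, n = 5 each), with a log2 fold change of 2.28 ± 0.72 (SE) and an adjusted p of 0.222 by edgeR. Without SF_CD library 5 the log2 fold change was 3.22 and the adjusted p 0.0333 by edgeR. Col1a1, Col1a2 and Col5a2 were then the called chains, where 0.18% of all genes were called higher. Without all 3 libraries under 1000000 counts, Col1a1 had a log2 fold change of 3.04 and an adjusted p of 0.0705 by edgeR. It was not called there, so its call depended on which libraries were kept.

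Col1a2 was at 15.3, 16.6, 13.4, 12.2 and 31.6 CPM in SF_HFD libraries 1 to 5, and at 4.51, 3.64, 2.80, 2.05 and 15.6 CPM in SF_CD libraries 1 to 5. Again only SF_CD library 5, with 8 counts and a 95% interval of 6.73 to 30.7 CPM, reached into the SF_HFD range. The means were 17.8 ± 7.87 CPM in the SF_HFD libraries and 5.72 ± 5.59 CPM in the SF_CD libraries (SD, n = 5 each), with a log2 fold change of 1.96 ± 0.57 (SE) and an adjusted p of 0.187 by edgeR. Without SF_CD library 5 the adjusted p was 0.0415 with a log2 fold change of 2.52, and without the 3 libraries under 1000000 counts it was 0.0323 with 2.34, where Col5a2 was the other called chain and 0.126% of all genes were called higher. With other tools on all 10 libraries, DESeq2 called Col5a2, Col5a1 and Col1a2 higher, where it called 0.664% of all genes higher and 1.87% lower. It called Col9a1 lower. limma-voom with quality weights called these 3 and Col1a1 higher, where it called 0.815% of all genes higher.

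Col3a1, the chain of type III collagen that often shares fibrils with type I, showed no such difference over all 10 libraries. It was at 11.1, 8.53, 9.80, 7.85 and 10.1 CPM in SF_HFD libraries 1 to 5, and at 27.1, 3.97, 4.34, 3.57 and 19.5 CPM in SF_CD libraries 1 to 5. SF_CD libraries 1 and 5, both under 1000000 counts, were above every SF_HFD library, and the other 3 SF_CD libraries were below every SF_HFD library. The means were 9.48 ± 1.303 CPM in the SF_HFD libraries and 11.7 ± 10.9 CPM in the SF_CD libraries (SD, n = 5 each), with a log2 fold change of 0.01 ± 0.54 (SE) and an adjusted p of 0.998 by edgeR. Those high values rest on 12 counts in SF_CD library 1 (95% interval 13.98 to 47.3 CPM) and 10 counts in SF_CD library 5 (9.34 to 35.8 CPM). Without the 3 libraries under 1000000 counts the log2 fold change was 1.24 ± 0.33 (SE), with an adjusted p of 0.161 by edgeR.

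All 5 tested fibrillar chains had a positive log2 fold change, with a median of 2.28 beside 0.02 over all genes tested, and 1 of the 5 was called. Col5a2 and Col5a1 are among them and were tested only because they were high in SF_HFD, so this count and median describe the tested chains and are no support for a difference of the class. The other 3 were Col1a1 at 2.28, Col1a2 at 1.96 and Col3a1 at 0.01. The summed level of the 11 fibrillar chains was 70.1, 55.5, 60.9, 49.9 and 111.2 CPM in SF_HFD libraries 1 to 5, and 36.1, 14.9, 9.81, 10.2 and 77.9 CPM in SF_CD libraries 1 to 5. SF_CD library 5 lay within the SF_HFD range and the other 4 SF_CD libraries lay below it. Of the 6 fibrillar chains that were not tested, Col2a1 and Col24a1 had no counts. Col11a1 had 34 counts in SF_HFD and 40 in SF_CD, Col5a3 had 3 in SF_HFD and 4 in SF_CD, Col27a1 had 1 in SF_HFD and 2 in SF_CD, and Col11a2 had 3 in SF_HFD and 0 in SF_CD.

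**Figure D2:**
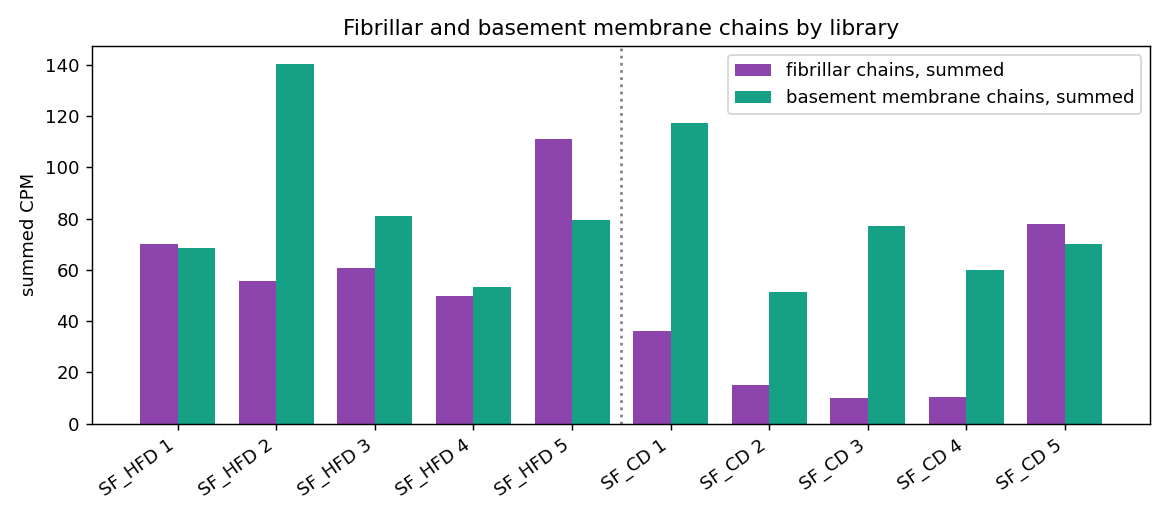
Summed CPM of the 11 fibrillar and the 8 basement membrane chains in each library, SF_HFD libraries left of the dotted line and SF_CD libraries right of it. The fibrillar sum lies between 49.9 and 111.2 CPM in SF_HFD and at 9.81 to 36.1 CPM in 4 SF_CD libraries, with 77.9 CPM in SF_CD library 5, and the basement membrane sums overlap.

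The basement membrane chains did not separate the diets. Col4a1 and Col4a2 form the most widespread type IV network, and Col18a1 is the type XVIII chain whose end is released as endostatin. Col4a1 was at 33.2, 66.6, 26.9, 11.5 and 35.4 CPM in SF_HFD libraries 1 to 5, and at 54.1, 15.7, 24.9, 22.9 and 48.7 CPM in SF_CD libraries 1 to 5. The SF_HFD values spanned all of the SF_CD values, and the log2 fold change was 0.13 ± 0.48 (SE) with an adjusted p of 0.949 by edgeR. The values of SF_CD libraries 1 and 5 rest on 24 and 25 counts. Without the 3 libraries under 1000000 counts the log2 fold change of Col4a1 was 0.70, with an adjusted p of 0.499 by edgeR. Col4a2 was at 18.0, 40.1, 14.1, 8.83 and 21.5 CPM in SF_HFD libraries 1 to 5, and at 31.6, 12.2, 14.6, 14.1 and 5.84 CPM in SF_CD libraries 1 to 5. SF_HFD library 2 held the highest value of Col4a1 and of Col4a2, and the log2 fold change of Col4a2 was 0.43 ± 0.48 (SE) with an adjusted p of 0.785 by edgeR. The Col4a2 value of SF_CD library 5 rests on 3 counts. Without the 3 libraries under 1000000 counts the log2 fold change of Col4a2 was 0.55, with an adjusted p of 0.56 by edgeR.

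Col18a1 was at 16.3, 33.4, 38.2, 31.0 and 16.4 CPM in SF_HFD libraries 1 to 5, and at 31.6, 21.8, 36.0, 17.9 and 11.7 CPM in SF_CD libraries 1 to 5. The groups overlapped, with a log2 fold change of 0.19 ± 0.40 (SE) and an adjusted p of 0.903 by edgeR. Without the 3 libraries under 1000000 counts the log2 fold change of Col18a1 was 0.24, with an adjusted p of 0.753 by edgeR. The summed level of the 8 basement membrane chains averaged 84.5 ± 33.1 CPM in the SF_HFD libraries and 75.1 ± 25.5 CPM in the SF_CD libraries (SD, n = 5 each). Among the untested chains of this class, Col4a5 had 48 counts in SF_HFD and 33 in SF_CD, and Col4a4 had 5 in SF_HFD and 27 in SF_CD. Col4a3 had 7 in SF_HFD and 21 in SF_CD, and Col15a1 had 1 in SF_HFD and 9 in SF_CD. SF_CD library 4 alone held 21 of the SF_CD counts of Col4a4 and all 21 of Col4a3. By mean CPM Col4a3 lay the other way, at 0.829 in SF_HFD and 0.319 in SF_CD. That SF_HFD mean came mostly from library 5, at 3.79 CPM on 3 counts. Col4a6 had no counts.

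The chains that anchor epithelial cells were too rare to test. Col7a1, which forms the anchoring fibrils under the basement membrane, had 41 counts in SF_HFD and 37 in SF_CD over all libraries. Col17a1, a transmembrane chain of hemidesmosomes, had 4 counts in SF_HFD and 0 in SF_CD. Type VI collagen, a filament around fibrils, was as rare, with 16 counts of Col6a1 in SF_HFD and 22 in SF_CD, 8 counts of Col6a2 in SF_HFD and 15 in SF_CD, and 18 counts of Col6a3 in SF_HFD and 20 in SF_CD. Col6a5 had 0 counts in SF_HFD and 1 in SF_CD, and Col6a4 and Col6a6 had none.

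Fibril-associated chains, which coat fibrils without forming them, had 2 tested members, with log2 fold changes of opposite sign and neither called. Col14a1 was at 2.63, 4.38, 8.23, 46.0 and 0 CPM in SF_HFD libraries 1 to 5, and at 2.25, 6.17, 1.82, 0.379 and 1.95 CPM in SF_CD libraries 1 to 5. SF_HFD library 4 stood alone, and the log2 fold change of 2.27 ± 0.96 (SE) had an adjusted p of 0.368 by edgeR. Without that library the log2 fold change was 0.65, with an adjusted p of 0.878 by edgeR. Col9a1, given by library because its values stood out, was at 0.181, 1.61, 0.555, 0 and 0 CPM in SF_HFD libraries 1 to 5, and at 2.25, 1.76, 0.841, 15.5 and 3.89 CPM in SF_CD libraries 1 to 5. Most of its counts came from SF_CD library 4, and its log2 fold change of -3.47 ± 1.02 (SE) had an adjusted p of 0.191 by edgeR. Without SF_CD library 4 the log2 fold change was -1.87, with an adjusted p of 0.507 by edgeR. Col9a1 had reached the test through the SF_CD libraries.

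The untested Col12a1, singled out after its values were seen, had 59 counts in SF_HFD and 6 in SF_CD. It was at 0.905, 0.461, 1.48, 2.04 and 5.05 CPM in SF_HFD libraries 1 to 5, and at 0, 0.110, 0.140, 0.304 and 0 CPM in SF_CD libraries 1 to 5. These values did not overlap, a pattern that 2.23% of all genes tested showed, a set without Col12a1. The lowest SF_HFD value rests on 2 counts. A count of 0 leaves up to 8.32 CPM in SF_CD library 1 and 7.18 CPM in SF_CD library 5, above every SF_HFD value. Without the filter the log2 fold change of Col12a1 was 3.16, with an adjusted p of 0.191 by edgeR. The network chain Col8a1 was at 3.80, 5.07, 14.9, 4.08 and 24.0 CPM in SF_HFD libraries 1 to 5, and at 0, 0.992, 5.04, 6.45 and 27.3 CPM in SF_CD libraries 1 to 5. The groups overlapped, with a log2 fold change of 0.51 ± 0.83 (SE) and an adjusted p of 0.869 by edgeR. Of the remaining untested chains, Col16a1 had 47 counts in SF_HFD and 25 in SF_CD, and Col28a1 had 23 in SF_HFD and 1 in SF_CD. Col23a1 had 1 in SF_HFD and 13 in SF_CD. SF_HFD libraries 3 and 4 held all 23 of Col28a1, and SF_CD library 4 held 12 of the 13 of Col23a1. Col10a1 had 15 in SF_HFD and 14 in SF_CD, and Col20a1 had 15 in SF_HFD and 5 in SF_CD. Col8a2, Col26a1, Col9a2 and Col9a3 had at most 5 counts in either diet, and Col13a1, Col19a1, Col22a1 and Col25a1 had none.

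At an unadjusted p under 0.05, 5 of the 11 tested chains were higher in SF_HFD (Col5a2, Col5a1, Col1a2, Col1a1 and Col14a1) and Col9a1 was lower, beside 4.92% of all genes tested higher and 6.73% lower. Since Col5a2, Col5a1 and Col9a1 reached the test through the group in which they were high, this count does not describe the 44 chains.

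**Figure D3:**
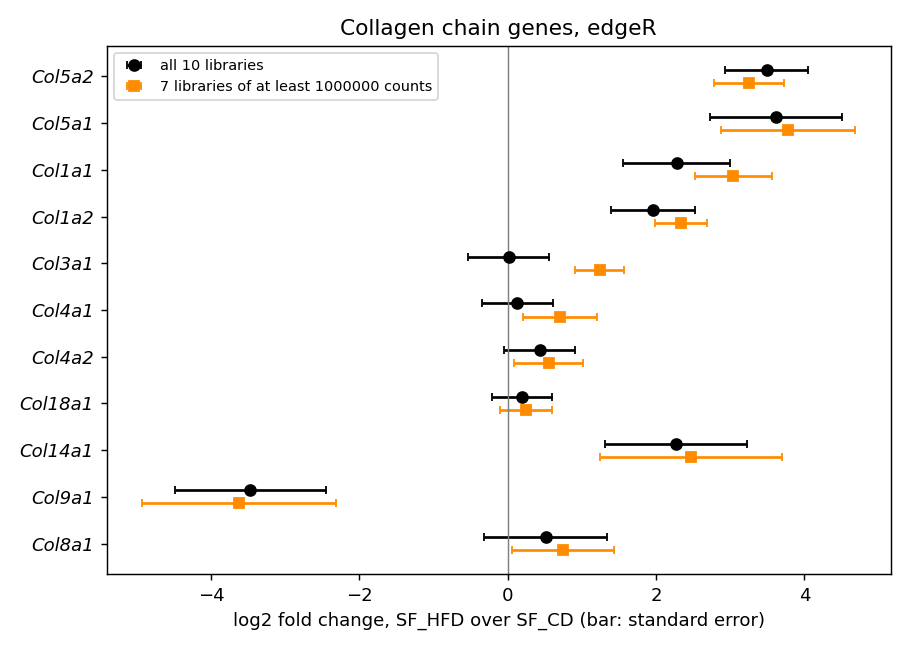
Log2 fold change of SF_HFD over SF_CD with its standard error for the 11 tested chains, from all 10 libraries (circles) and from the 7 libraries of at least 1000000 counts (squares). Col5a2 is at 3.49 and 3.25, Col1a1 at 2.28 and 3.04, and Col3a1 at 0.01 and 1.24.

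Per kilobase of transcript, which allows levels of different genes to be compared, Col4a1 averaged 5.25 CPM per kb in SF_HFD and 5.03 in SF_CD, and Col18a1 averaged 4.84 in SF_HFD and 4.25 in SF_CD. Their order turned in the 7 libraries of at least 1000000 counts, where Col4a1 averaged 5.22 in SF_HFD and 3.20 in SF_CD and Col18a1 averaged 5.31 in SF_HFD and 4.51 in SF_CD. Col1a1 averaged 4.23 CPM per kb in SF_HFD and 1.18 in SF_CD, and Col1a2 averaged 3.33 in SF_HFD and 1.07 in SF_CD. Fibrillar chains made up 37.97% ± 10.4 of all collagen chain CPM in SF_HFD and 20.5% ± 12.9 in SF_CD (SD, n = 5 each). Basement membrane chains made up 45.7% ± 13.04 in SF_HFD and 62.1% ± 15.1 in SF_CD.

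Ratios between chains of the same library do not depend on the scaling of that library. 6 pairs were compared, chosen after the levels had been seen, so their p-values are no independent support for the differences. The log2 ratio of Col1a1 to Col3a1, with 0.5 added to each count, was 1.18, 0.99, 1.13, 1.04 and 2.10 in SF_HFD libraries 1 to 5, and -2.32, 0.22, -1.58, -1.53 and 0.25 in SF_CD libraries 1 to 5. Every SF_HFD ratio was above every SF_CD ratio. The difference was 2.28, with p = 0.00794 in a two-sided exact permutation test over the 252 ways to assign 5 and 5 libraries, the smallest p the design allows, and 0.0159 after adjustment over the 6 pairs.

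Col1a2 to Col3a1 differed by 1.65 and Col5a2 to Col3a1 by 3.26, each with the same exact permutation p of 0.00794 and the same adjusted p of 0.0159. In the 7 libraries of at least 1000000 counts these 3 differences were 2.05, 1.13 and 2.14, each at exact permutation p = 0.0286, the smallest that 7 libraries allow. Within type I collagen, Col1a1 to Col1a2 was 0.47 ± 0.27 in SF_HFD and -0.16 ± 0.67 in SF_CD (SD, n = 5 each), with an exact permutation p of 0.0794, which was 0.0317 without SF_CD library 5. Within type IV collagen, Col4a1 to Col4a2 was 0.73 ± 0.22 in SF_HFD and 1.09 ± 1.01 in SF_CD (SD, n = 5 each), with an exact permutation p of 0.730. Col5a2 had 0 counts in SF_CD libraries 1 and 5, both under 1000000 counts. Its ratios to Col3a1 and Col1a2 in these libraries rest on the 0.5 added to each count. Col5a2 to Col1a2 ranged from -1.03 to -0.17 in SF_HFD and from -4.09 to -0.92 in SF_CD. This pair had an exact permutation p of 0.0238 and an adjusted p of 0.0357. Its exact permutation p was 0.0556 without SF_HFD library 1, 3 or 4, so each of these decides that call.

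**Figure D4:**
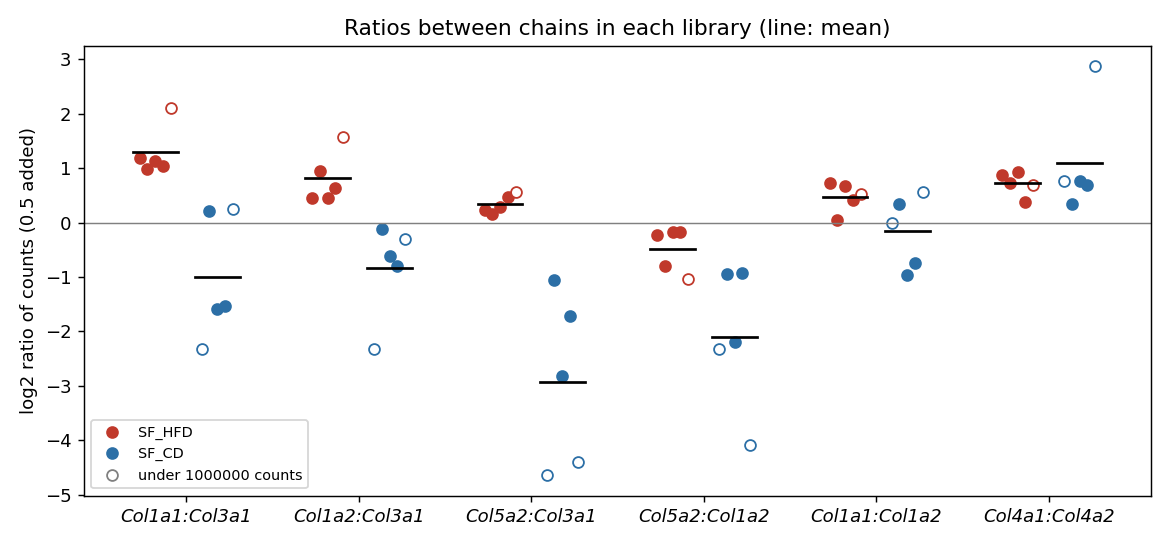
Log2 ratio of the counts of 6 chain pairs in each library, with 0.5 added to each count, SF_HFD left of SF_CD in each pair, lines for group means and open circles for libraries under 1000000 counts. For Col1a1 to Col3a1 the SF_HFD libraries lie between 0.99 and 2.10 and the SF_CD libraries between -2.32 and 0.25.

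Col3a1 and Col5a2 are neighbours. In mm10, Col3a1 lies on chromosome 1 from 45311538 to 45349706 on the plus strand and Col5a2 from 45374321 to 45503282 on the minus strand, so their 3′ ends face each other across 24614 bases. Col4a1 (chromosome 8, 11198423 to 11312826, minus strand) and Col4a2 (11312805 to 11449287, plus strand) start head to head, and their annotated transcripts overlap by 22 bases on opposite strands. Col1a1 is on chromosome 11 from 94936224 to 94953042, Col1a2 on chromosome 6 from 4504814 to 4541544 and Col5a1 on chromosome 2 from 27886425 to 28039514, all on the plus strand. Genes that overlap the tested chains on the same strand held almost no counts, at most 5 for Gm44716 within Col4a1 in SF_HFD and 0 in SF_CD.

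Of the 44 chains, 35 had a promoter entry in RefSeq (GRCm38.p6), and 2 fibrillar chains with unlike values are shown, Col3a1 near 0 and Col5a1 above 3 in log2 fold change. Each sequence is the 250 bases before the gene start on the plus strand, with capitals for the TATA box letters (TATAAA), the GC box letters (GGGCGG) and the CCAAT box letters on either strand.
Col3a1, chr1:45311288-45311537: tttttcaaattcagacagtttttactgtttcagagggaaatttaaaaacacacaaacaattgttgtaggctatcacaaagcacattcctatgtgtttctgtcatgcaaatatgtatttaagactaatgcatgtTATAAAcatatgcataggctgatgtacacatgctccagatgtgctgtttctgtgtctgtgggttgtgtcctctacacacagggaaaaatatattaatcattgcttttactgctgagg
Col5a1, chr2:27886175-27886424: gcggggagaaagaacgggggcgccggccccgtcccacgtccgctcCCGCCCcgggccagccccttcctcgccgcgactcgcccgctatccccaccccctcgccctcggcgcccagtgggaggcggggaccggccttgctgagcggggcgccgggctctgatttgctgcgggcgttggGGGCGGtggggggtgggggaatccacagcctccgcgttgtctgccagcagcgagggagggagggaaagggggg
The Col3a1 window is 35.2% G and C and holds TATAAA once, a motif in 12.4% of all 32851 RefSeq promoter windows. The Col5a1 window is 76.4% G and C and holds GGGCGG once on each strand, a motif in 32.7% of windows, while CCAAT occurs in 33.8%. The median window is 52.4% G and C. These matches describe the letters of the windows only.

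Genes that crosslink collagen and help assemble fibrils held the only called members of the 7 pathway lists. Of 13 genes of collagen crosslinking and fibril assembly, 11 were tested and 3 were called higher in SF_HFD, with 10 of 11 positive and a median log2 fold change of 1.89 beside 0.02 over all genes, of which 0.153% were called higher. Lox, Postn and Loxl1 passed the filter on low counts in all 5 SF_HFD libraries and in 1 SF_CD library, so they were tested only because they were high in SF_HFD, and the count and median of the list are no support for its difference. Bgn passed it in all 10 libraries. Lox, the lysyl oxidase that crosslinks collagen, averaged 14.3 ± 3.26 CPM in the SF_HFD libraries and 0.728 ± 0.755 CPM in the SF_CD libraries (SD, n = 5 each). Its log2 fold change was 4.49, at an adjusted p of 0.00121 by edgeR. Postn, the matrix protein periostin, averaged 7.52 ± 0.922 CPM in the SF_HFD libraries and 0.668 ± 0.744 CPM in the SF_CD libraries (SD, n = 5 each). Its log2 fold change was 3.84, at an adjusted p of 0.00728 by edgeR. Bgn, a small proteoglycan that binds fibrils, averaged 31.8 ± 4.996 CPM in the SF_HFD libraries and 6.58 ± 7.25 CPM in the SF_CD libraries (SD, n = 5 each). Its log2 fold change was 2.55, at an adjusted p of 0.0477 by edgeR. The call of Bgn was lost in 12 of 19 alternative analyses, with adjusted p up to 0.117. Sparc, the most abundant of the list per kilobase, averaged 66.7 ± 19.5 CPM in the SF_HFD libraries and 30.0 ± 39.7 CPM in the SF_CD libraries (SD, n = 5 each) and was not called by edgeR.

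The other collagen pathway lists had no called member. Of the genes tested, log2 fold changes were positive for 5 of 11 genes of prolyl and lysyl hydroxylation, 5 of 9 genes of folding and export and 3 of 3 of procollagen processing. They were positive for 4 of 5 receptors, 3 of 5 of breakdown and 8 of 11 basement membrane partners. The untested partner Lama4 had 6 counts in SF_HFD and 80 in SF_CD, Pxdn had 31 in SF_HFD and 69 in SF_CD, and Nid2 had 3 in SF_HFD and 21 in SF_CD. The untested Lama2, with 4 counts in SF_HFD and 1 in SF_CD, and Lama1, with 3 and 0, lay the other way. Fkbp10 (folding and export) and Mrc2 (receptors) passed the filter in 5 SF_HFD libraries and in 0 and 1 SF_CD libraries. Both were thus tested only because they were high in SF_HFD. The most abundant per kilobase of these lists were not called: Ppib at a log2 fold change of -0.16, Mia2 at -0.56, Pcolce at 1.39, Cd44 at -0.96, Timp1 at 0.99 and Lamb3 at 0.76. Serpinh1, the collagen chaperone, was singled out after its values were seen and averaged 7.97 ± 0.843 CPM in the SF_HFD libraries and 1.61 ± 1.497 CPM in the SF_CD libraries (SD, n = 5 each). Its adjusted p was 0.189 by edgeR, 0.0381 by DESeq2 and 0.0187 by limma-voom.

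**Figure D5:**
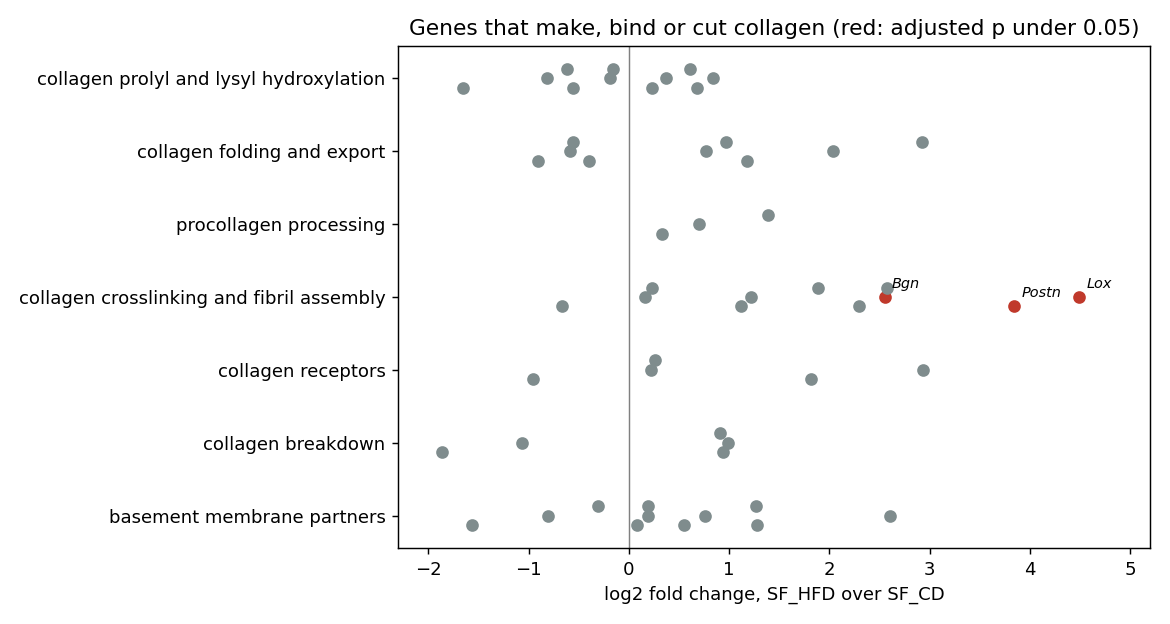
Log2 fold change of SF_HFD over SF_CD for the tested genes of 7 collagen pathway lists, 1 point a gene, with genes called at an adjusted p under 0.05 in red. Lox at 4.49, Postn at 3.84 and Bgn at 2.55 are the called genes.

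The called markers of contractile cells differed in the same direction as Col5a2. Of 10 smooth muscle and pericyte markers, 6 were tested and 3 were called higher in SF_HFD, where 0.153% of all genes were called higher. Acta2 passed the filter in all 10 libraries, while Actg2 and Tagln passed it in 2 SF_CD libraries, Myl9 in 3, and Cnn1 and Myh11 in none, each beside all 5 SF_HFD libraries. All tested markers of this list but Acta2 thus reached the test through the SF_HFD libraries. The count of called markers is therefore no support for a difference of the list. The summed level of the 10 markers was 169.9 to 257.7 CPM in SF_HFD and 3.50 to 24.9 CPM in SF_CD. Acta2, the actin of smooth muscle and of activated fibroblasts, averaged 97.6 ± 18.1 CPM in the SF_HFD libraries and 6.79 ± 5.45 CPM in the SF_CD libraries (SD, n = 5 each). Its log2 fold change was 3.97, at an adjusted p of 0.00232 by edgeR. Actg2 had a log2 fold change of 4.47 (adjusted p 0.0159) and Myl9 of 4.49 (adjusted p 0.000156) by edgeR. Without the 3 libraries under 1000000 counts the adjusted p was 0.0701 for Acta2 and 0.159 for Actg2, and the call of Actg2 was also lost without SF_HFD library 2 or 5 or SF_CD library 1 (adjusted p 0.0533 to 0.0582 by edgeR). Of 10 fibroblast markers, 4 were tested and Mfap5 was called higher (log2 fold change 2.80, adjusted p 0.0314 by edgeR), and that call was lost in 9 of 19 alternative analyses. Mfap5 passed the filter in 5 SF_HFD and 2 SF_CD libraries. The untested Fbln1 of the same list lay the other way, with 6 counts in SF_HFD and 171 in SF_CD. Fbln1 was at most at 0.278 CPM in SF_HFD, and at 0, 0.331, 0.420, 11.9 and 15.6 CPM in SF_CD libraries 1 to 5. Its high SF_CD values thus came from libraries 4 and 5 only, and library 5 held under 1000000 counts. The fibroblast markers without Ly6c1, which carried most of their sum, ranged from 33.2 to 55.6 CPM in SF_HFD and from 6.17 to 52.6 CPM in SF_CD. Pdgfra, a defining fibroblast marker, had 5 counts in SF_HFD and 6 in SF_CD.

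Summed endothelial markers ranged from 4.61 to 19.0 CPM in SF_HFD and from 8.15 to 33.8 CPM in SF_CD, with none called, and summed leukocyte markers from 6.91 to 31.1 CPM in SF_HFD and from 16.2 to 34.1 CPM in SF_CD, with none called and Cd3e at 0. Enteric glia markers ranged from 0.453 to 4.61 CPM in SF_HFD and from 0 to 3.89 CPM in SF_CD, with Sox10 and Gfap at 0. The 8 epithelial markers summed to 4369 to 6915 CPM in SF_HFD and 2105 to 4827 CPM in SF_CD, and none was called. The most abundant of each marker list per kilobase that was tested and not called had a log2 fold change of 0.48 for Krt19 (epithelial), 0.86 for Egfl7 (endothelial) and -0.20 for Cd68 (leukocyte). Egfl7 was at 0.28 without SF_HFD library 5, and the other tested endothelial marker, Pecam1, was at -1.76 and was not called. The untested Vwf had 12 counts in SF_HFD and 86 in SF_CD. It was at most at 0.648 CPM in SF_HFD, and at 2.25, 1.10, 0.561, 5.39 and 0 CPM in SF_CD libraries 1 to 5. The part of contractile cells or fibroblasts in the difference of Col5a2 was not tested.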

How the data were processed

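All values came from 1 deposited table of genes by libraries. The authors deposited estimated counts as whole numbers, and the submitters' processing notes name Salmon 1.3.0 and mm10. Which annotation was used is not given in the sources used here. Reads shared by similar transcripts are divided by a statistical estimate in Salmon. Every per-sample column was mapped, and 1243 rows carry no gene symbol. Coordinates and coding sequences came from GENCODE M21, which holds 94.7% of the row identifiers, and promoters from RefSeq.

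The 10 serine-free libraries were grouped by diet. Genes were tested with edgeR 4.0.16 in R 4.3.3 (robust quasi-likelihood test) with TMM scaling, filterByExpr and Benjamini-Hochberg adjustment over 11780 genes, at 0.05. It was also run on simulated counts with known changes, placed only in the more abundant genes. The outcome is not given here, and that run says nothing on the calls of rare chains. Alternatives used other scalings and filters, DESeq2 1.42.0, limma 3.58.1 (voom with quality weights), a replicate block, each library left out in turn, and only the 7 libraries of at least 1000000 counts. Alternatives for chain ratios and for pathway and marker genes were added after seeing the data. The members and lists were chosen with earlier results of these data known. Named are every called chain, the 3 most abundant fibrillar and basement membrane chains per kilobase, the most abundant of each other class with a tested member, and the called and most abundant genes of each list. Total counts per library ranged from 499774 to 12841275, which limits the precision of rare chains, and intervals cover counting error only. A marker gene of the lists is not reported here.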

Additional observations from a re-analysis of the deposited data

Results flagged for a closer look

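In 7 of 22 groups of 5 libraries, 1 library stood far from the others, with a gap to its nearest neighbour of over 0.71 of the group's range (Dixon's test). Chance flags about 1 in 20 groups of independent, normally distributed values. These libraries differ in depth and the groups share libraries, so that rate is no measure for the 7 flags. SF_CD library 5, under 1000000 counts, stood above the other SF_CD libraries for Col1a1 (23.4 CPM, the next at 4.63), Col1a2 (15.6 CPM, the next at 4.51), Col8a1 (27.3 CPM, the next at 6.45) and Col5a1 (1.95 CPM, the next at 0.561). The Col5a1 value is 1 count. SF_HFD library 5, also under 1000000 counts, stood above the other SF_HFD libraries for Col1a2 (31.6 CPM, the next at 16.6). SF_HFD library 4 stood apart for Col14a1 (46.0 CPM, the next at 8.23), and SF_CD library 4 for Col9a1 (15.5 CPM, the next at 3.89).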

How the results depend on the processing

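Col5a2 stayed higher in SF_HFD and past the threshold in all 19 alternatives, with a log2 fold change of 3.25 to 4.01 and an adjusted p of 7.62e-07 to 0.0499. The number of genes called, 38 with edgeR, was 78 without a filter, 18 with a stricter filter, 298 with DESeq2, 168 with limma-voom and quality weights, and 16 to 88 when 1 library was left out. Chains called higher numbered 3 with DESeq2 (Col5a2, Col5a1 and Col1a2), 4 with limma-voom (the same and Col1a1), 2 without the 3 libraries under 1000000 counts (Col5a2 and Col1a2) and 1 to 3 with 1 library left out. Chains called lower numbered 0 with edgeR and 1 with DESeq2 (Col9a1). With a replicate block, 22 genes were called, Col5a2 had a log2 fold change of 3.61, and Col4a1 turned to -0.03. Libraries of the same number did not deviate together (correlations of -0.211 to 0.136), so the numbers were not taken as a pairing. Col3a1 turned to -0.13 with RLE scaling, -0.01 with the stricter filter and -0.21 with DESeq2. With 1 library left out, log2 fold changes ranged from -0.26 to 0.38 for Col4a1, -0.30 to 0.63 for Col3a1, -0.37 to 0.03 for Cd68, -0.12 to 0.47 for Ly6c1 and -0.37 to 0.05 for Ppib, and the difference in the Col4a1 to Col4a2 ratio from -0.55 to 0.08. Without the libraries under 1000000 counts that ratio differed by 0.12, Cd44 turned to 0.31, Mia2 to 0.15 and Egfl7 to -0.08, and Cd44 was at 0.13 with limma-voom. The difference in the Col5a2 to Col1a2 ratio was 1.01 without those libraries (exact permutation p = 0.0571). The cause of these changes was not tested. Depth limits what can be said of the 33 untested chains, most of them with few counts.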
